A study of Mus musculus with 15 samples.

Results

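The genotype by A83-01 interaction is, for each gene, the effect of A83-01 in Smad2/3 cKO endometrial organoids minus the effect of A83-01 in control organoids. It was computed as a contrast of 4 group means, with each normalized count raised by 1 and taken to the log2 scale. All 15 samples of the series entered, and all genes with a mean of at least 10 normalized counts over these samples were kept, which left 13066 of 16729 genes. Endometrial organoids are cultures of mouse uterine epithelial cells grown in Matrigel. Controls carried floxed Smad2 and Smad3 alleles (Smad2flox/flox; Smad3flox/flox) without Cre, and cKO samples carried the same floxed alleles together with Ltfcre/+, a Cre driven from the lactoferrin gene of the uterine epithelium. The groups were control + vehicle (DMSO, n = 3), control + A83-01 (n = 4), Smad2/3 cKO (DMSO, n = 4) and Smad2/3 cKO + A83-01 (n = 4). All 4 groups shared a medium with EGF, FGF-10, HGF, WNT3a, R-spondin and the BMP antagonist Noggin, and the study used adult mice unless it states another age, with estradiol given at weaning to induce the Cre. A83-01 was given as 1 dose throughout, so the comparison holds no dose series.

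TGFβ and activin ligands bind receptor kinases at the cell surface, and the type I receptors ALK4, ALK5 and ALK7 then phosphorylate SMAD2 and SMAD3, which enter the nucleus with SMAD4 and bind DNA. A83-01 blocks the kinases of these receptors, while the Ltfcre deletion removes the transcription factors below them. In the uterine epithelium the pathway is known for restraining proliferation and shaping differentiation. A gene with an interaction of 0 had the same log2 effect of the inhibitor in both genotypes. A positive interaction says that the inhibitor raised the gene more, or lowered it less, in Smad2/3 cKO organoids than in control organoids, and a negative interaction says the opposite.

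Sums of normalized counts lay between 20241800 and 24423100 per sample. On the first principal component (39.3% of the variance) the 3 control + vehicle samples lay from -109 to -77.6, apart from all others. The 8 cKO samples lay from 13.0 to 53.9. Within control + A83-01, replicates 1 and 2 lay at -31.0 and -22.6 and replicates 3 and 4 at 24.2 and 24.7. All 12 epithelial markers were tested, with summed levels of 143471 to 358837 normalized counts per sample, while summed levels reached 223 for the stromal list, 219 for the smooth muscle list and 361 for the endothelial list. Leukocyte markers summed to between 1535 and 8783 per sample, and Smad2/3 cKO replicate 2 held 3372 normalized counts of Lyz2 and 351 of Adgre1, 2 macrophage genes whose means were at most 55.4 and 3.32 in the other groups. The whole-gene values of Smad3 did not separate the genotypes. Those of Smad2 were lower in every Smad2/3 cKO sample than in control + vehicle. With A83-01 the genotypes overlapped in Smad2 through Smad2/3 cKO + A83-01 replicate 2, at 1211 against 804 to 854 in the rest of its group. Smad2 averaged 1171 ± 149 (SD, n = 3) in control + vehicle, 982 ± 61.6 (n = 4) in control + A83-01, 875 ± 43.8 (n = 4) in Smad2/3 cKO and 921 ± 195 (n = 4) in Smad2/3 cKO + A83-01. Smad3 averaged 1624 ± 107, 1373 ± 559, 1576 ± 333 and 1448 ± 435 in the same order. Counts per gene do not resolve the deleted exons, so these values check neither the deletion nor the labels. The interaction was 0.30 for Smad2 (limma, adjusted p = 0.582) and 0.19 for Smad3 (adjusted p = 0.909).

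Few genes were called as responding to A83-01 differently in the genotypes. The thresholds were a Benjamini-Hochberg adjusted p below 0.01 in limma and a ratio of the effects of at least 1.4-fold in either direction. Of the 13066 genes, 72 (0.551%) were called. The interaction was positive in 13 of them (0.0995% of all genes tested) and negative in 59 (0.452%). Over all genes tested the interaction ranged from -8.38 to 9.61 with a median of 0.0033. In limma 208 genes had an adjusted p below 0.05, and 1865 (14.3%) had an unadjusted p below 0.05. The direction split depended on the scale on which the groups were compared. With a pseudocount of 10 in place of 1 it was 38 positive and 57 negative, and on a square root scale, which gives more weight to abundant genes, it was 81 positive and 11 negative, with 22 genes shared with the 72. Control samples with the same label number deviated together, and with the number within each genotype as a random block 186 genes were called, 58 positive and 128 negative, among them all 72. Leaving out 1 library moved the count by over 1.5 times for control + vehicle replicate 2 (39 genes), control + A83-01 replicate 4 (46), Smad2/3 cKO replicate 4 (45) and Smad2/3 cKO + A83-01 replicate 3 (44). Just inside the threshold lay Gas6 and Tpbg, each at an adjusted p of 0.00931, and Gm8941 at 0.00994. Just outside it lay Mb, Cyp26a1 and Mcub, each at 0.0110.

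The 72 genes shared a shape that the contrast did not require. In all 72 the effect of A83-01 was larger in size in control than in Smad2/3 cKO organoids, which was so for 9440 of the 13066 genes tested. In all 72 the 3 control + vehicle samples lay apart from all 12 other samples, which held for 14.8% of all genes tested. The control groups did not overlap in any of the 72 (21.6% of all genes), and the Smad2/3 cKO groups did not overlap in 4 (2.91% of all genes). The 59 genes with a negative interaction had a median A83-01 effect of 3.69 in control organoids and 0.19 in Smad2/3 cKO organoids. The 13 genes with a positive interaction had medians of -2.08 and 0.16. These counts and medians describe genes chosen by the same values and carry no test.

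**Figure D1:**
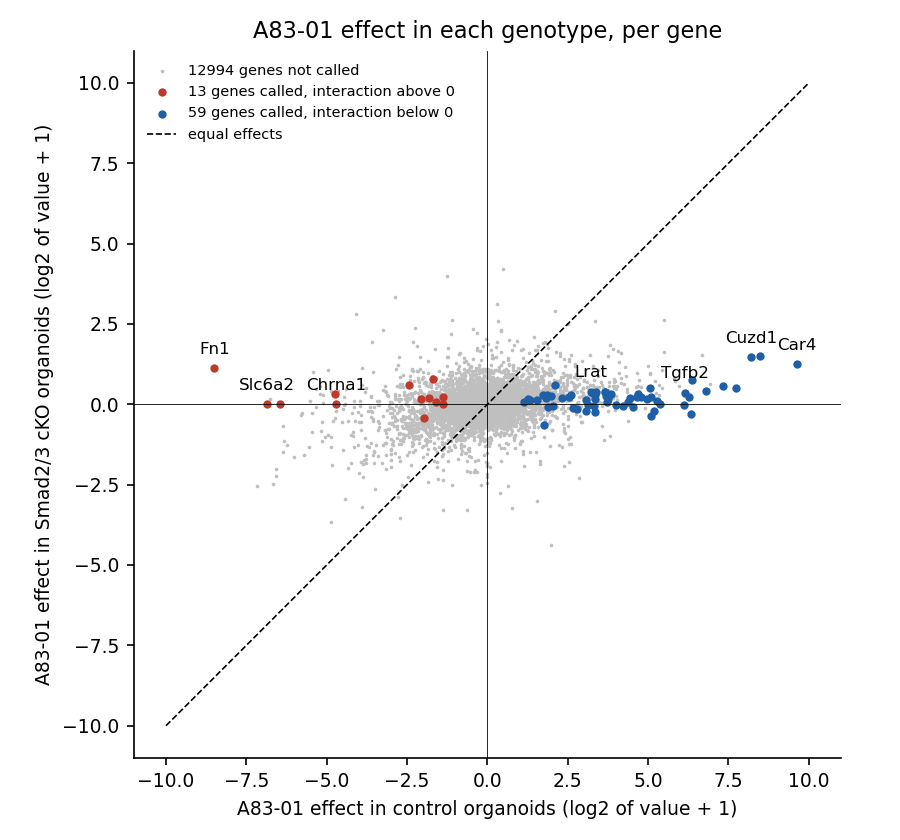
Effect of A83-01 in control organoids (x axis) against the effect in Smad2/3 cKO organoids (y axis), both as differences of mean log2(normalized count + 1), 1 point per gene, with 12994 genes not called in grey, 13 called genes with a positive interaction in red and 59 with a negative interaction in blue. The called genes run along the horizontal line of no effect in Smad2/3 cKO organoids, up to 9.62 and down to -8.49 in control organoids, and away from the dashed line of equal effects.

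Genes with a positive interaction were high in control + vehicle samples and low in the 3 other groups. The largest was that of Fn1, which encodes fibronectin, an extracellular matrix glycoprotein and a long-known TGFβ target. Fn1 had 1884, 3828 and 5624 normalized counts in control + vehicle and 4.64, 10.48, 5.55 and 18.6 in control + A83-01. In Smad2/3 cKO it had 1.77, 0.633, 17.9 and 19.3, and in Smad2/3 cKO + A83-01 9.47, 21.2, 14.2 and 9.86. The lowest control + vehicle value, 1884, stood against a highest value of 18.6 in control + A83-01, whereas the cKO groups overlapped. The effect of A83-01 was -8.49 in control organoids (limma, adjusted p = 0.000106) and 1.12 ± 0.90 (SE) in Smad2/3 cKO organoids (adjusted p = 0.994), and the interaction was 9.61 (95% interval 7.26 to 11.96, adjusted p = 0.000298). The stromal marker sum ranged from 49.6 to 223 among control + vehicle samples and from 7.45 to 60.5 with A83-01, while the ranges in cKO samples were 15.2 to 44.3 without the inhibitor and 8.72 to 138 with it. Its part in the Fn1 result was not tested, and in bulk samples fewer cells of a type and less RNA per cell cannot be told apart.

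Chrna1, the alpha subunit of the muscle-type nicotinic acetylcholine receptor that is known from skeletal muscle, showed the same pattern at a higher residual level. It had 1884, 1817 and 4403 normalized counts in control + vehicle and 80.5, 53.1, 114 and 157 in control + A83-01. The values were 29.8, 36.4, 59.1 and 52.0 in Smad2/3 cKO and 32.2, 36.5, 63.3 and 44.7 in Smad2/3 cKO + A83-01. The control groups were far apart and the cKO groups covered the same range. The effect in Smad2/3 cKO organoids was 0.00 with a 95% interval from -0.81 to 0.81, against -4.71 in control organoids, and the interaction was 4.71 (limma, adjusted p = 0.000399). Slc6a2, the noradrenaline transporter, had 116, 136 and 95.3 normalized counts in control + vehicle and 0 in all 12 other samples. Control + A83-01 was thus at least 38.6-fold lower against a floor of 3 normalized counts over the group, and no fold can be given for Smad2/3 cKO organoids. Kcng1, a modifier subunit of voltage-gated potassium channels, had 104, 150.5 and 551 in control + vehicle, at most 3.31 in control + A83-01 and 0 in all 8 cKO samples.

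Bend5, a BEN-domain transcriptional regulator, had an interaction of 5.05 and fell from 347, 260.3 and 267 in control + vehicle to 17.8, 16.3, 4.13 and 7.38 with the inhibitor, while the cKO samples held 1.61 to 15.98. The interactions of the other genes in this direction were smaller. Paqr8, a membrane progestin receptor, had an interaction of 3.05 and Gstm7, a glutathione transferase, of 2.47. Gstm7 differed from the pattern in its cKO samples. It had 117, 130.0, 121 and 83.1 normalized counts in Smad2/3 cKO and 156, 201, 272 and 157 in Smad2/3 cKO + A83-01, groups that did not overlap, with an effect of 0.78 ± 0.26 (SE, adjusted p = 0.994, limma) against -1.69 in control organoids. Gdpd5, a glycerophosphodiesterase, Ctxn1, Faah, which degrades the endocannabinoid anandamide, and Tpbg, the trophoblast glycoprotein, had interactions of 2.24, 2.02, 1.68 and 1.62. Plekhm1, an adaptor of late endosomes and lysosomes, had an interaction of 1.54 with an effect of -1.98 in control organoids and -0.44 in Smad2/3 cKO organoids. It had 5683, 5796 and 7798 normalized counts in control + vehicle and 1062 to 1999 in the other 12 samples. The calls of Fn1, Slc6a2 and Chrna1 held when any 1 of the 15 samples was left out. Those of Bend5, Paqr8, Gdpd5, Ctxn1, Faah and Tpbg were lost in 11 to 14 of the 15 omissions, those of Kcng1 in 2, and those of Gstm7 and Plekhm1 in 1.

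The 250 bases before the RefSeq start of Chrna1 (GRCm38.p6, chr2:73580339-73580588, minus strand) are shown with those of Tgfb2 (chr1:186705990-186706239, minus strand), the abundant called gene of the other direction described next, so that 1 gene of each direction is given. Capitals mark CAGAC or its reverse complement GTCTG, the short element that SMAD3 and SMAD4 are known to bind.
Chrna1: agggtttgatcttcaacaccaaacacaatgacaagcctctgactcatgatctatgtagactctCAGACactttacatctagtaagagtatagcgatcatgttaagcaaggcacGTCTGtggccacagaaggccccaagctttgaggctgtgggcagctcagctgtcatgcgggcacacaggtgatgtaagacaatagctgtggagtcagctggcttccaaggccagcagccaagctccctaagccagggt
Tgfb2: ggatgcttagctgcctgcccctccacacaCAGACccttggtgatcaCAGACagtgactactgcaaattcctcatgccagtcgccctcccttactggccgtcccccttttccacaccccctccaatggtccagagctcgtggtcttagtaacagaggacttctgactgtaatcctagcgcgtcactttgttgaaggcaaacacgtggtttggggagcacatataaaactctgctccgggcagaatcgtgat
Each sequence held 2 matches. Over the 12741 promoter entries of tested genes in the table, 40.6% held at least 1 match on either strand in this window. The share was 29.4% of the 17 entries of 9 genes with a positive interaction, and 45.0% of the 60 entries of 42 genes with a negative interaction, so the motif was about as frequent in the called genes as in all. The longer SMAD element GTCTAGAC was in 0.22% of all entries and in 0 of those of called genes. The GC-rich element GGCGCC, also scanned as a SMAD element, was in 16.1% of all entries, in 1 of the 17 and in 3 of the 60. The AP-1 motif TGACTCA, which can share letters with CAGAC, was in 3.47% of all entries, in 3 of the 17 and in 1 of the 60. Several entries of a gene can overlap, and a match is a description of letters only.

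Genes with a negative interaction were low in control + vehicle samples and high in the 3 other groups. The largest was that of Car4, a membrane-bound carbonic anhydrase. Car4 had 0, 0 and 1.78 normalized counts in control + vehicle and 624, 452, 1390.3 and 3832 in control + A83-01. It had 2508, 2030.1, 881 and 4468 in Smad2/3 cKO and 15562, 2153, 2045 and 9122 in Smad2/3 cKO + A83-01. Control + vehicle was at the floor of 3 normalized counts, so control + A83-01 was at least 525-fold higher, while the cKO groups overlapped. The interaction was -8.38 (limma, adjusted p = 0.000875). From ratios of the plain group means, with control + vehicle set to the floor, it was -7.49, so the scale differs as well as the floor.

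Tgfb2, which encodes a ligand of the pathway itself, had 129, 229 and 235 normalized counts in control + vehicle and 9135, 14802, 17364 and 13948 in control + A83-01. It had 26497, 21296, 12858 and 33790.4 in Smad2/3 cKO and 41707, 23291, 22364 and 30519.9 in Smad2/3 cKO + A83-01. The control groups did not overlap and the cKO groups did. A83-01 raised Tgfb2 70.2-fold in control organoids, on the value plus 1 scale, against 1.28-fold in Smad2/3 cKO organoids, where the 95% interval of the log2 effect was -0.31 to 1.03. The interaction was -5.77 ± 0.44 (SE, adjusted p = 9.75e-06, limma). Havcr1, a phosphatidylserine receptor of injured kidney epithelium, had 131, 69.8 and 250.1 normalized counts in control + vehicle and 11599, 9849, 19279 and 20989 in control + A83-01. It had 24262, 8284, 12172 and 25818 in Smad2/3 cKO and 21116, 21412, 17094 and 25158 in Smad2/3 cKO + A83-01, and the interaction was -6.38 (adjusted p = 4.62e-05, limma). In Car4, Tgfb2 and Havcr1 alike the ranges of control + A83-01 and Smad2/3 cKO overlapped.

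The remaining genes named in this direction by the size of their interaction were Slc46a2 (-7.23), a solute carrier, Akr1b7 (-6.96), an aldo-keto reductase, Nptx1 (-6.76), neuronal pentraxin 1, Cuzd1 (-6.75), a secreted uterine and pancreatic protein, 4930539E08Rik (-6.65), Tmem229a (-6.13), Hsd11b1 (-6.04), which regenerates active glucocorticoid, Napsa (-5.62), an aspartic protease, and Ppp1r42 (-5.45). In Smad2/3 cKO samples the means of some of these genes were also higher with A83-01, although none was called. Akr1b7 had 1246, 287, 462 and 883 normalized counts in Smad2/3 cKO and 1664, 2986, 1597 and 1237 with A83-01, an effect of 1.52 ± 0.43 (SE, adjusted p = 0.994, limma), against 0, 2.68 and 5.31 and 618, 482, 1819.5 and 1946 in the control groups. Cuzd1 had 11041, 2937, 2519 and 12811 in Smad2/3 cKO and 17803, 20468, 6855 and 23779 with A83-01, an effect of 1.46 ± 0.58 (SE, adjusted p = 0.994, limma), against 25.7, 32.6 and 13.2 and 6392, 5231, 6655 and 10201 in the control groups. The effects in Smad2/3 cKO organoids were 0.57 ± 0.20 (SE) for Nptx1 and 0.76 ± 0.31 for Napsa, and these too had an adjusted p of 0.994 in limma. Of the 12 genes named in this direction, 11 held their call in every omission of 1 sample, and Tmem229a, which was at 0 in all 3 control + vehicle samples, lost it in 2.

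Several more called genes were chosen after their values were seen. Tshr, the thyrotropin receptor, had the smallest p of all genes. It had 47.1, 43.4 and 37.0 normalized counts in control + vehicle, 1380.2, 1305, 1867 and 2451 in control + A83-01, 4963, 3836, 2897 and 4931 in Smad2/3 cKO and 5410.0, 4114, 3458 and 4572 in Smad2/3 cKO + A83-01. The 3 levels did not overlap, with control + vehicle lowest, control + A83-01 between and the 8 cKO samples highest. The interaction was -5.20 (95% interval -5.89 to -4.51, adjusted p = 9.86e-07, limma). The steroid enzymes Akr1c18, which inactivates progesterone, and Cyp17a1, which makes androgen precursors, had interactions of -4.31 and -4.54. The call of Cyp17a1 was lost in 5 of the 15 omissions and at a pseudocount of 10 (adjusted p = 0.2045, limma). Its interaction ranged from -7.81 to -1.63 over the alternatives on the log2 scale. Akr1c18 had 4650.2, 4247 and 5452 normalized counts in control + vehicle, 76600.0, 64012, 122655 and 158226 in control + A83-01 and 82169 to 147087 in the 8 cKO samples. The selenoproteins Gpx3, an extracellular glutathione peroxidase, and Selenop, the selenium carrier of plasma, had interactions of -3.27 and -3.39. The fatty acid transporter Cd36 and the fatty acid binding protein Fabp4 had interactions of -4.63 and -3.65, but the call of Cd36 was lost in 12 and that of Fabp4 in 8 of the 15 omissions.

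**Figure D2:**
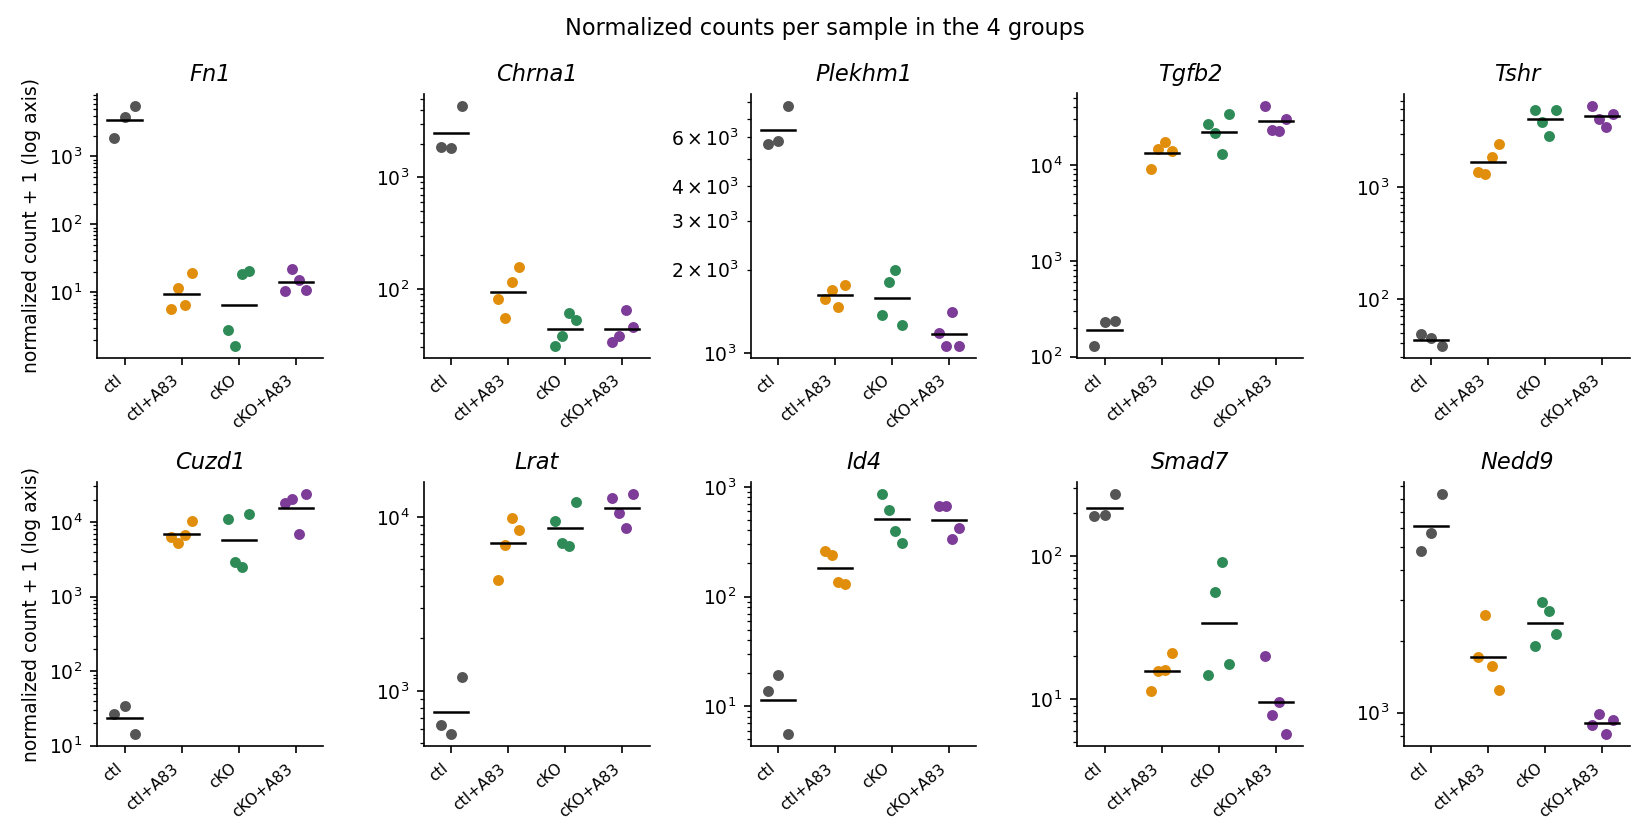
Normalized counts plus 1 on a log axis for 10 genes, 1 point per sample and a bar at the mean of the log2 values, in control + vehicle (ctl, 3 samples), control + A83-01 (ctl+A83, 4), Smad2/3 cKO (cKO, 4) and Smad2/3 cKO + A83-01 (cKO+A83, 4). The 3 control + vehicle samples stand apart from the rest in the called genes Fn1, Chrna1, Plekhm1, Tgfb2, Tshr, Cuzd1, Lrat and Id4, whereas Smad7 and Nedd9, which were not called, also had lower means with A83-01 in the cKO samples.

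Among the genes that the study names for its organoids, Lrat and Id4 were called. Lrat, which esterifies retinol for storage, had 632, 561 and 1202 normalized counts in control + vehicle and 4356, 6878, 9918 and 8415 in control + A83-01. It had 9426, 7034, 6788 and 12248 in Smad2/3 cKO and 12916, 10489, 8685 and 13546 in Smad2/3 cKO + A83-01. Every sample outside control + vehicle was higher than every sample within it, and the interaction was -2.85 (95% interval -3.74 to -1.95, adjusted p = 0.00243, limma). The call of Lrat was lost in 1 omission, at an adjusted p of 0.0110. Id4, an inhibitor of DNA binding that BMP signaling is known to induce, had 12.7, 18.2 and 4.55 in control + vehicle and 258, 239, 134 and 128 in control + A83-01. It had 858, 618, 395.6 and 305 in Smad2/3 cKO and 660.1, 662, 334 and 416 in Smad2/3 cKO + A83-01, with an interaction of -4.02 (adjusted p = 0.00314, limma). The inhibitor left Id4 in control organoids below every cKO sample.

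Cyp26a1, which breaks down retinoic acid, and Aldh1a2, which makes it, had interactions of similar size but missed the threshold, at -3.68 (adjusted p = 0.0110) and -3.43 (adjusted p = 0.0210, limma). Cyp26a1 had 23.6, 8.50 and 7.60 normalized counts in control + vehicle, 469, 232, 334 and 283 in control + A83-01, 133, 430.3, 227 and 412 in Smad2/3 cKO and 786, 250.4, 721 and 581 in Smad2/3 cKO + A83-01. Its effect in Smad2/3 cKO organoids was 0.98 (95% interval -0.011 to 1.98), an interval that holds rises as large as its upper end. Aldh1a1 spread widely within groups, from 20.4 to 691 in control + A83-01, and its interaction was 2.51 ± 1.54 (SE, adjusted p = 0.516). Id1 and Id3 had interactions of -1.11 (adjusted p = 0.349) and -2.11 (adjusted p = 0.109, limma). The WNT ligand Wnt9a had an interaction of 3.04 (adjusted p = 0.108), and the Frizzled receptors Fzd1, Fzd3, Fzd7 and Fzd10 had 0.97, 1.59, 1.15 and 2.04 (adjusted p between 0.345 and 0.563, limma). Fzd2 was under the filter on low values.

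Smad7, the inhibitory SMAD that TGFβ induces against itself, had 191, 194 and 270.3 normalized counts in control + vehicle and 10.4, 14.8, 14.9 and 20.2 in control + A83-01. It had 13.8, 55.5, 90.4 and 16.5 in Smad2/3 cKO and 19.0, 6.80, 8.60 and 4.70 in Smad2/3 cKO + A83-01. The cKO groups overlapped through 1 sample of the inhibitor group, and the effect was -1.82 ± 0.70 (SE, adjusted p = 0.994, limma) against -3.79 in control organoids. The interaction of 1.96 (95% interval 0.19 to 3.73, adjusted p = 0.288) was not called.

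Gene lists written from gene names held 0 to 2 called members each. Over all genes tested 0.551% were called, 6562 of 13066 had an interaction above 0 and the median was 0.0033. Among 37 tested genes of the TGFβ and SMAD feedback list 1 was called (2.70%, Tgfb2), with a median interaction of 0.45, and 30 of the 37 were above 0. The list holds targets together with ligands, receptors and SMADs, among them Smad2 and Smad3, so these values are not those of targets alone. Tgfb2 is a ligand and went against the median of its list. Members that were not called included Smurf1, a ubiquitin ligase of the pathway (0.79, adjusted p = 0.0479), and Inhba, the activin subunit (5.78, adjusted p = 0.0831, limma). Among 30 tested extracellular matrix and adhesion genes 1 was called (3.33%, Fn1), the median was 1.22 and 26 were above 0. Itga5, the fibronectin receptor subunit, had an interaction of 2.06 (adjusted p = 0.0167, limma) and Col6a1 of 6.89 (adjusted p = 0.0400), the latter from values of at most 39.2 in any sample. Col3a1 (4.63) and Col1a2 (3.69), collagen genes named after their values were seen, are members of both this list and the stromal marker list. The median stromal marker sum was 137 in control + vehicle and 39.3 in control + A83-01, and 26.1 and 53.8 in the cKO groups, and its part in the median of the list was not tested. Among 8 tested regulators of epithelial to mesenchymal transition and mesenchymal markers, most of them cytoskeletal or muscle genes and 2 (Acta2 and Tagln) also in the smooth muscle list, 0 were called, with a median of 0.69. Cdh2, the N-cadherin gene of that list, had 141, 116 and 51.3 normalized counts in control + vehicle and at most 4.37 elsewhere, with an interaction of 5.39 (adjusted p = 0.0167, limma).

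Against the same 0.551% called and 6562 of 13066 genes above 0, 0 of 49 tested WNT pathway genes were called, the median interaction was 0.67 and 41 were above 0. The smallest adjusted p was that of Tcf7l1, a TCF repressor, at 0.0479 with an interaction of 4.45. Among 27 tested genes of retinoid metabolism 1 was called (3.70%, Lrat), with a median of -0.25. Rdh12, a retinal reductase, had 69.8, 20.9 and 71.1 normalized counts in control + vehicle and 893 to 10627 elsewhere, and an interaction of -4.98 (adjusted p = 0.0167, limma). Among 27 tested genes of the BMP pathway 1 was called (3.70%, Id4), with a median of 0.17. Among 32 tested uterine gland and receptivity genes 2 were called (6.25%, Cuzd1 and the water channel Aqp8, -2.30), with a median of 0.084. Cdh16, an epithelial cadherin of the list, had an interaction of -3.05 (adjusted p = 0.0110, limma).

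Of 35 tested S phase and mitosis genes 0 were called, and 25 had a negative interaction, with a median of -0.30, while 0.551% of all genes tested were called and 6504 of 13066 had a negative interaction. Rrm2, a subunit of ribonucleotide reductase, had 2799, 3009 and 3895 normalized counts in control + vehicle and 10112, 8056, 15224 and 13580.4 in control + A83-01, with an effect of 0.30 in Smad2/3 cKO organoids and an interaction of -1.53 (adjusted p = 0.0246, limma). Among 20 cytostatic regulators 0 were called, with a median of -0.078. Of 25 inflammatory genes 1 was called (4.00%), Csf1, the macrophage growth factor, with 2047, 3014 and 4823 normalized counts in control + vehicle, 30379.9, 30577, 52939 and 51989.5 in control + A83-01 and 25595 to 86616 in the 8 cKO samples (interaction -3.43, adjusted p = 0.00243, limma). The leukocyte marker sum ranged from 1535 to 3295 among control + vehicle samples and from 3428 to 8783 with A83-01, while the ranges in cKO samples were 2119 to 8511 without the inhibitor and 4032 to 7984 with it. Cd68 made up most of the mean sum, with means of 1857 without and 5330 with A83-01 in control organoids. The other markers were split there. Means without and with A83-01 were 540 and 18.6 for Laptm5, 55.4 and 8.09 for Lyz2, 19.6 and 3.96 for Itgam and 3.32 and 2.49 for Adgre1. They were 22.8 and 168 for Ptprc and 203 and 319 for Csf1r, both higher with A83-01. Of the 10 markers 7 were tested and 0 called, Ptprc averaged at most 265 in a group, Tyrobp was above 0 in Smad2/3 cKO replicate 2 only, and the part of these markers in the Csf1 result was not tested. Motile cilia genes (8 tested), interferon-stimulated genes (31), cholesterol genes (24) and stress and hypoxia genes (29) had 0 called members and medians of 0.38, -0.30, -0.011 and -0.25.

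**Figure D3:**
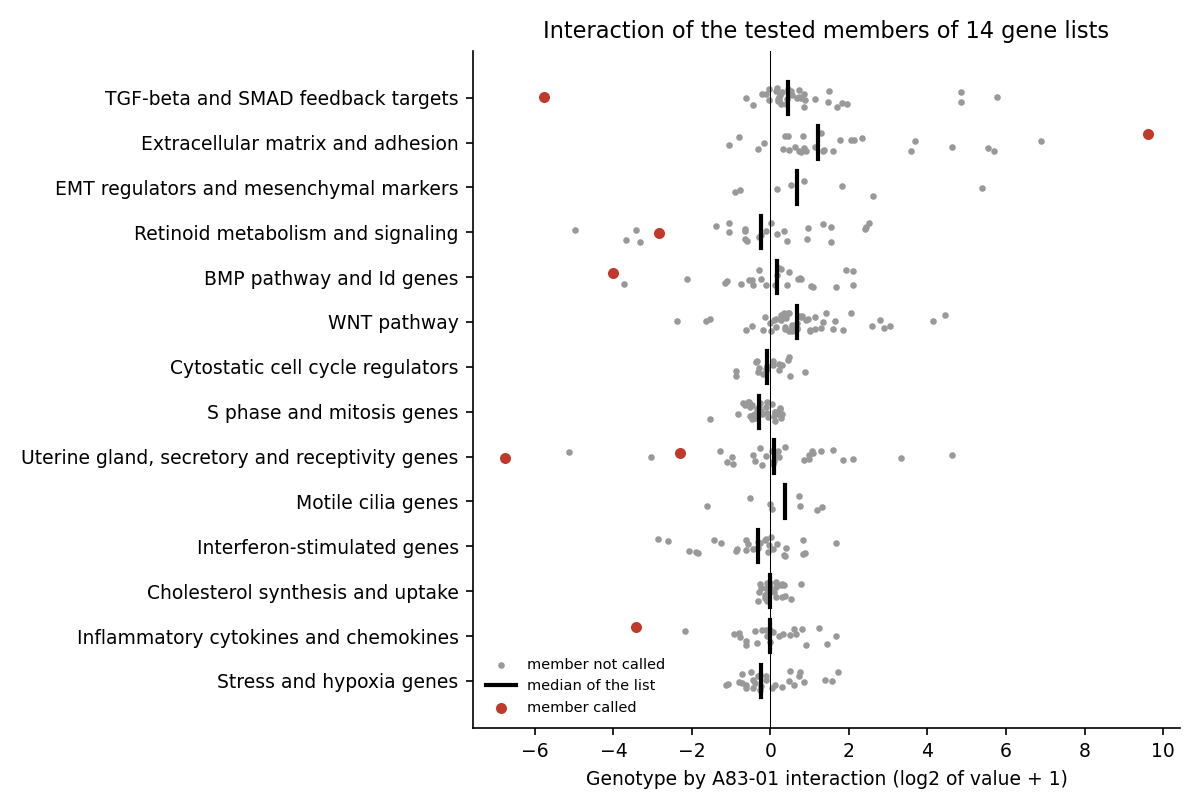
Genotype by A83-01 interaction (x axis, log2 scale) of every tested member of 14 gene lists, with called members as large red points, other members as grey points and the list median as a bar. Extracellular matrix genes (median 1.22), WNT genes (0.67) and genes of the TGFβ and SMAD feedback list (0.45) lie mostly above 0. Of the 7 called members shown, 6 lie below 0.

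The interaction was then read against the effect of A83-01 within each genotype, fitted on separate libraries. In control organoids 295 of 13009 genes were called (2.27%), 155 higher with A83-01 (1.19%) and 140 lower (1.08%). With the label number as a random block the count was 978. It fell to 53, 49 and 128 without control + vehicle replicate 1, 2 or 3, and to 140 and 116 without control + A83-01 replicate 3 or 4. In Smad2/3 cKO organoids limma called 0 of 12998 genes (0%), with an unadjusted p below 0.05 in 554 (4.26%). The same was found for 2882 genes (22.2%) in control organoids. No other tool was run on these values. Over all genes tested the median SE was 0.22 in the cKO comparison and 0.28 in the control comparison. For the genes called in control organoids and tested in both, it was 0.31 and 0.29 in the same order. The smallest adjusted p in Smad2/3 cKO organoids was 0.0501, for Nedd9, a focal adhesion scaffold named here after its values were seen. Nedd9 had 4788, 5729 and 8356 normalized counts in control + vehicle and 1723, 2575, 1569 and 1242 in control + A83-01. It had 1906, 2938, 2688 and 2155 in Smad2/3 cKO and 887, 989, 810.0 and 932 in Smad2/3 cKO + A83-01. Both control groups and both cKO groups were apart, with effects of -1.83 (adjusted p = 0.00581) and -1.40 ± 0.15 (SE), and the interaction was 0.43 (95% interval -0.25 to 1.11, adjusted p = 0.613, limma).

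The 295 genes chosen in control samples were read in the cKO samples, which took no part in that choice. Of them 268 were tested in the cKO comparison and 0 were called. These were all 155 genes called higher and 113 of the 140 called lower. The rest of the 140 were under the filter on low values in the cKO samples, so the values below leave them out. The effect had the same direction in 222 of the 268 (82.8%), against 58.1% of the 12632 genes tested in both comparisons. An unadjusted p below 0.05 was found in 29 in the same direction and in 1 in the opposite direction. The median effect, taken in the direction seen in control, was 2.39 in control organoids and 0.28 in Smad2/3 cKO organoids, against 0.048 over all genes. The 2.39 was read in the samples that chose the genes, where selection can raise it. In 32 of the 268 (11.9%) the upper end of the 95% interval, in the direction seen in control, lay below a change of 1.4-fold, against 45.6% of all genes tested in both comparisons. The largest effects kept in Smad2/3 cKO organoids were those of Pmepa1, a TGFβ-induced inhibitor of receptor signaling (-2.95 ± 0.79, SE), and Calml3 (2.61 ± 0.76), both at an adjusted p of 0.994 in limma and both named after their values were seen. Pmepa1 had an effect of -4.44 in control organoids and an interaction of 1.497 (adjusted p = 0.525, limma).

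**Figure D4:**
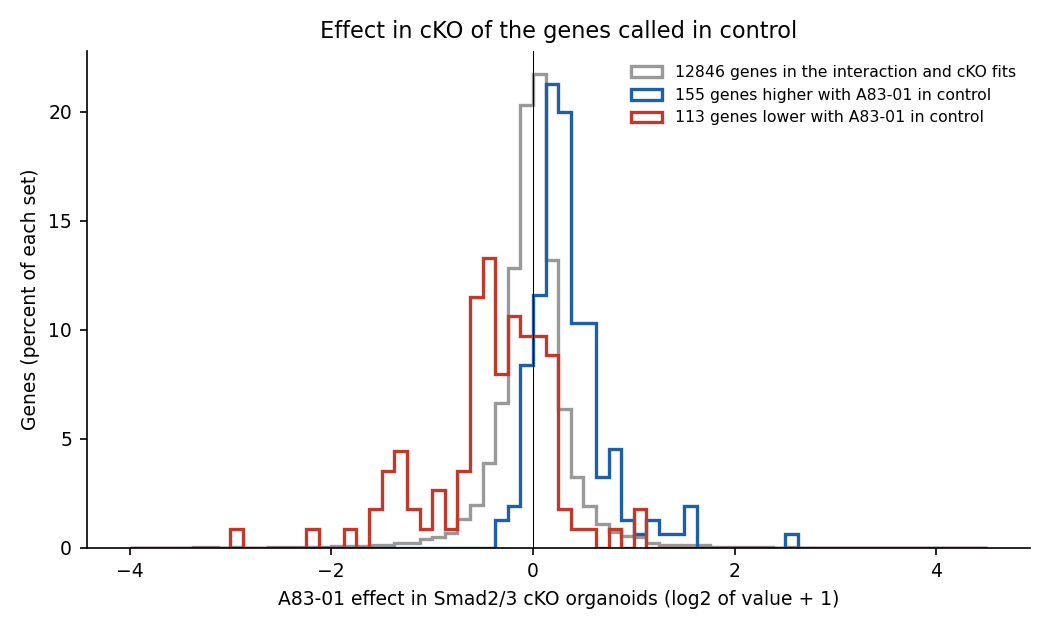
Distribution of the A83-01 effect in Smad2/3 cKO organoids (x axis, log2 scale) as the percentage of genes per bin, for 12846 genes in the interaction and cKO fits (grey), 155 genes called higher with A83-01 in control organoids (blue) and the 113 of 140 called lower there that were tested in cKO samples (red). The blue curve is shifted to the right, with a median of 0.28. The red curve is shifted to the left, with a median of 0.32 in its own direction. The medians in control organoids were 2.61 and 2.08, read in the samples that chose the genes, where selection can raise them.

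The same contrast can be read as the effect of genotype with and without the inhibitor. Smad2/3 cKO against control organoids gave 970 called genes of 13149 with vehicle (7.38%), 536 higher (4.08%) and 434 lower (3.3%), and 3 of 12915 with A83-01 (0.0232%), and these 2 comparisons share no sample. Their control samples share 3 label numbers, and same-numbered control samples deviated together, so the controls cannot be taken as independent of each other. Of the 970 genes, 925 were tested with A83-01, namely all 536 called higher and 389 of the 434 called lower. The direction was the same in 864 of the 925 (93.4%, against 67.8% of all 12726 genes). The median effect in the direction seen with vehicle was 1.65 with vehicle and 0.47 with A83-01. The 1.65 was read in the samples that chose the genes, where selection can raise it. An unadjusted p below 0.05 in that direction was found in 327. The 3 genes called with A83-01, named as the whole of that count, were Nlrp6, an inflammasome sensor, Otop1, a proton channel, and Ncald, a neuronal calcium sensor, at 2.95, 3.06 and 2.00. Nlrp6 and Otop1 had interactions of -0.50 and -0.13 (adjusted p = 0.835 and 0.955, limma), and Ncald, with -1.49, was among the 72. Ncald had 162, 119.7 and 122 normalized counts in control + vehicle, 528, 502, 633 and 653 in control + A83-01, 1209.9, 1859, 1699.9 and 1328 in Smad2/3 cKO and 2631, 2521, 2398 and 1750.1 in Smad2/3 cKO + A83-01, so that the inhibitor group of the controls lay between the control + vehicle and the cKO samples.

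Over the 72 called genes the difference between genotypes was smaller in size with A83-01 than with vehicle in all 72, as for 70.4% of all genes tested. The interaction that chose the 72 is the difference of these 2 values, so their count carries no test. The median size of the difference between genotypes was 3.96 with vehicle and 0.48 with A83-01. In 56 of the 59 genes with a negative interaction the difference that remained with A83-01 still pointed to higher values in Smad2/3 cKO organoids, with a median of 0.52. In the 13 genes with a positive interaction the sign was kept in 8, with a median of -0.076. The sample descriptions carry numbers whose meaning they do not state. All 4 Smad2/3 cKO + A83-01 samples have numbers below 390, while the other groups hold numbers below and above it, so that number and group are partly tied. With the side of 390 as a covariate 61 genes were called and 50 of them were among the 72, and in the 10 samples below 390 alone 25 were called and 23 were among the 72.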

How the data were processed

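Per the labels and the study's methods, the authors made low-input SMART-Seq v4 libraries, estimated counts with Salmon 1.4.0 (build GRCm39) and ran DESeq2 1.32.0. The values the authors deposited, named signal here, are estimated counts scaled by a size factor for each sample. Only 1.37% to 2.64% of the values under 12 lay within 1% of a whole step, so whole reads were not recovered, raw depth is unknown, and count models were not used. Symbols were found for 16697 of 16729 genes.

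Contrasts were fitted with limma 3.58.1 in R 4.3.3 (eBayes with trend) on log2(value + 1), the interaction on all 15 samples and each simple effect on its own samples, with the thresholds of the study. Members, lists and tests were chosen with earlier results of these data known. The genes named were Smad2, Smad3, those the study names for its organoids with Fn1, Cuzd1 and Smad7, the 12 called genes with the largest interaction in each direction (filled by p from genes at an adjusted p below 0.05 where fewer were called), the 5 largest called rises and falls in the A83-01 effect in cKO, and the 3 tested members of each list with the smallest interaction p. Genes without a symbol or with a shared one were skipped in the last 3 parts. The genotype comparisons and the reading of chosen genes in other samples were added after the data were seen. Values of at most 3 were treated as the floor. The scripts were tested on simulated data.

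Label numbers were checked for pairing on deviations from group means. The 3 control pairs that share a number correlated at 0.354 to 0.423, and the 9 other control pairs ranged from -0.359 to 0.347. Samples that share a number were treated as paired only in the alternatives with the label number as a random block. The number 367 occurs in both genotypes. The main fits had no block, so their p-values leave the pairing out. In Smad2/3 cKO samples the same replicate number gave a mean r of 0.130 (lowest -0.166), and 1 label number was shared (r = 0.355). The 11 cKO pairs that share neither ranged from -0.348 to 0.394. The labels give 4 mice per genotype, while the cKO samples carry 7 numbers, so p-values may partly measure spread between cultures of 1 mouse. Promoters are RefSeq sequences of GRCm38.p6, matched by symbol. Alternatives were other pseudocounts, scales, filters, normalizations, variance models, blocks, label numbers below or above 390, thresholds and omissions of samples.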

Additional observations from a re-analysis of the deposited data

Results flagged for a closer look

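The effect of A83-01 differed between the genotypes, by the interaction term itself, in 26 genes named by rule, leaving out those named through a gene list only. Of the latter, Aqp8 (-2.30) and Csf1 (-3.43) were also called. The 26 are given by direction. With a positive interaction these were Fn1 (9.61), Slc6a2 (6.85), Kcng1 (6.46), Bend5 (5.05), Chrna1 (4.71), Paqr8 (3.05), Gstm7 (2.47), Gdpd5 (2.24), Ctxn1 (2.02), Faah (1.68), Tpbg (1.62) and Plekhm1 (1.54). With a negative interaction they were Car4 (-8.38), Slc46a2 (-7.23), Akr1b7 (-6.96), Nptx1 (-6.76), Cuzd1 (-6.75), 4930539E08Rik (-6.65), Havcr1 (-6.38), Tmem229a (-6.13), Hsd11b1 (-6.04), Tgfb2 (-5.77), Napsa (-5.62), Ppp1r42 (-5.45), Id4 (-4.02) and Lrat (-2.85).

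A single sample lay far from the other 3 of its group, by Dixon's 95% critical value, in 9 of the 154 groups of 4 examined (5.84%), and chance gives about 1 in 20. Smad2/3 cKO + A83-01 replicate 2 had 1211 normalized counts of Smad2, above 804 to 854 in the other 3, and 797 of Smad3, below 1648 to 1689. The same sample had 409 of Faah, above 306 to 318. Smad2/3 cKO + A83-01 replicate 1 had 9276 of Nptx1, above 6032 to 6305. Fzd10 was lowest in control + A83-01 replicate 4, at 8.25 against 20.5 to 22.4, and in Smad2/3 cKO replicate 1, at 0.952 against 9.76 to 13.5. Kcng1 reached 3.31 in control + A83-01 replicate 1, against 0.848 to 0.979, which is about the floor. Tpbg had 281 in control + A83-01 replicate 3, below 361 to 379. The summed epithelial markers reached 260486 in Smad2/3 cKO replicate 3, above 148461 to 167568.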

How the results depend on the processing

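Of 31 alternatives for the interaction, 15 of them omissions of 1 sample, the 72 called genes kept their direction in every value computed. The count was 127 with sample weights, 186 with the replicate block by label number within genotype, 208 at an adjusted p below 0.05, 25 in the samples with label numbers below 390, 109 without control + A83-01 replicates 1 and 2 together (chosen after seeing the data), and 39 to 77 when single samples were left out. The replicate number as a replicate block gave 63 calls, with 51 of the 72 kept. In control organoids the A83-01 effect gave 582 calls with sample weights, 978 with the label number block, 443 with the side of number 390 as a covariate, 38 below number 390, 955 at an adjusted p below 0.05, 642 with all 4 groups in the fit, 563 without replicates 1 and 2 of control + A83-01, and 49 to 312 in omissions. In Smad2/3 cKO organoids it gave 0 to 0 in omissions and 0 in all other alternatives run, the replicate number block included. The label number block gave no correlation there with 1 shared number, and 0 calls when fitted on all 15 samples. The genotype effect with A83-01 gave 5 calls with all 4 groups in the fit. Direction turned in 4 values, none of a called gene: Nedd9 (-0.076) and Ltf (-0.11) below number 390, and Smad3 without control + A83-01 replicate 1 (-0.12, with 0.45 as the highest value of the omissions) or without replicates 1 and 2 (-0.13). The cause of these changes was not tested. The omissions and the fits below number 390 also held fewer samples, and the part of that was not tested either. Of the 72 calls, 33 held in every omission and 21 were lost in 10 or more, most often without control + vehicle replicate 2 (36 lost). With 3 control + vehicle samples and values near the floor in that group for 6 genes, the size of the largest interactions depends on the pseudocount: that of Car4 ranged from -10.8 to -5.49.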
